A study of Mus musculus with 6 samples.

Results

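The T cell receptor and checkpoint genes were a set of 33 genes of the T cell surface, its signalling machinery and its nuclear regulators, chosen by symbol in a count table of 21718 genes, in which all 33 were found. They were measured by bulk RNA sequencing of 6 castration-resistant prostate tumours. Recipients in both groups were mice of the same genotype, which develop prostate tumours. Every recipient was given 900 rad and then donor marrow when 6 weeks old. Surgical castration followed at 8 weeks of age, and the tumours were taken out after a further 16 weeks. In the F10-deleted group (3 samples, numbered 1, 3 and 4) the marrow donors were F10fl/fl; LysM-Cre+, so Cre from the myeloid lysozyme locus was designed to remove F10, the gene of coagulation factor X, from myeloid cells. In the F10-intact group (3 samples, numbered likewise) the donors were F10fl/fl without Cre. T cells are not a target of LysM-Cre by design. The labels do not give how much of the recipients' own blood system remained, and they do not say that each sample was a separate animal.

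A T cell recognises a peptide held by an MHC molecule through the T cell receptor, whose alpha and beta chains bind and whose CD3 and zeta chains carry the signal into the cell. The CD4 and CD8 coreceptors bring in the kinase Lck, which phosphorylates the chains so that Zap70 and the adaptor Lat can pass the signal on. Costimulatory receptors such as CD28 add to the signal, and checkpoint receptors such as CTLA-4 and PD-1 restrain it. Genes of the checkpoint receptors and of the factor Tox are often raised together in T cells that meet antigen for a long time in tumours, a state called exhaustion.

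The samples held 9237308 to 11821588 counts each. The first principal component of all genes tested, with 47.6% of the variance, set F10-intact sample 4 apart from the others. F10 itself had 7, 4 and 9 counts in the F10-deleted samples and 2, 6 and 17 counts in F10-intact tumours, so these bulk counts do not check the genotype labels. All 9 prostate epithelium markers had counts in every sample, and so did all 7 skeletal muscle markers. Between 20143 and 20843 genes had a count in each sample, so the presence of counts does not check the tissue label. Of the 15963 genes that could be tested, 7 passed an adjusted p of 0.05 (edgeR quasi-likelihood test, Benjamini-Hochberg adjustment), or 2 with the replicate number as a block.

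The T cell genes were present at low levels in every tumour. Their counts summed to 2244, 1575 and 2365 in the F10-deleted samples against 2140, 2091 and 1712 in F10-intact tumours. Of the 33 genes, 25 had under 100 counts in every sample, and Ctla4, Tigit and Foxp3, with at most 22, 7 and 10 counts, fell below the filter on low counts. Of the 30 members tested, 0 passed the test over all genes by edgeR, where 0.0439% of all genes passed. By DESeq2, which called 371 higher and 121 lower of 21718 genes, 0 of 33 members passed, and by limma-voom, which called 2 higher, 0 of 30 did. At an unadjusted p under 0.05, 1 of the 30 (3.33%, Tnfrsf9, higher) differed by edgeR, set against 10.9% of all genes, of which 6.15% were higher and 4.74% lower. DESeq2 and limma-voom each gave 1 such member as well, set against 8.96% and 10.5% of all genes. The groups did not overlap for 2 of the 30 (6.67%), Tnfrsf9 with higher and Cd4 with lower values in the F10-deleted group, and did not overlap for 16.7% of all genes, 8.99% with higher and 7.67% with lower values. The median log2 fold change (log2 difference), F10-deleted over F10-intact, was -0.03 over the 30 members and -0.02 over all genes, and 13 of the 30 (43.3%) lay above 0, where 47.3% of all genes did. In bulk tissue, fewer T cells and less RNA per T cell cannot be told apart.

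**Figure D1:**
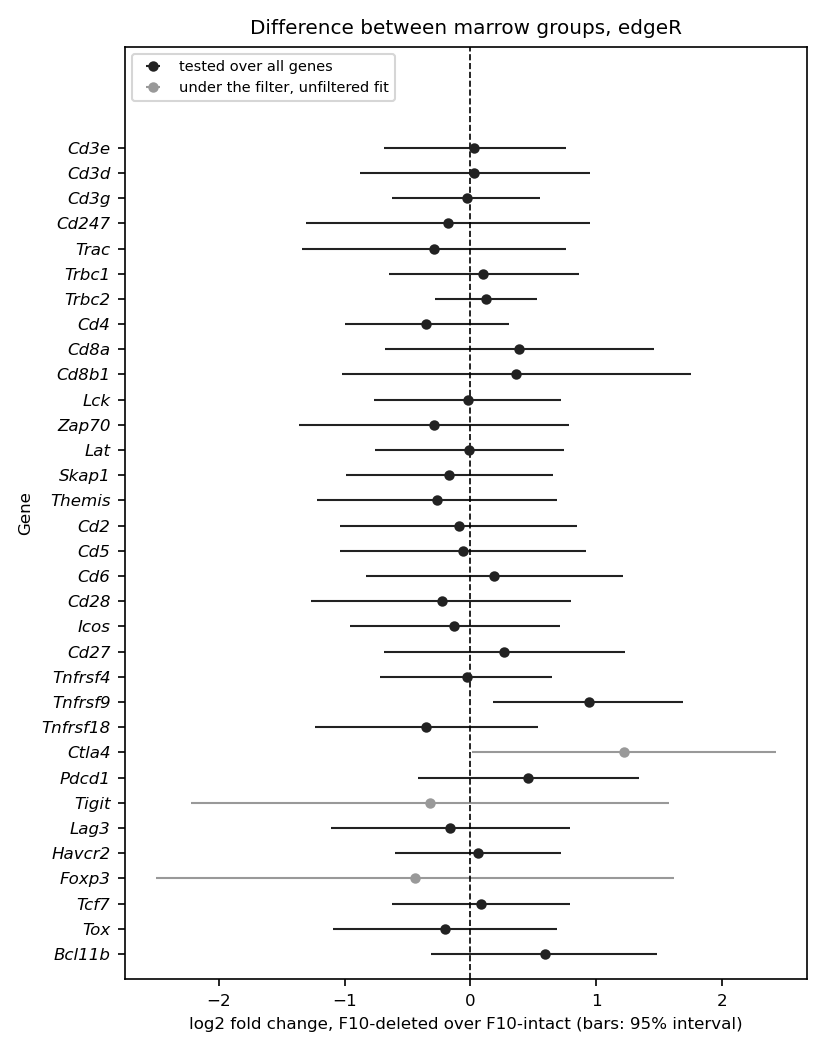
Log2 fold change of each of the 33 genes, F10-deleted over F10-intact, from edgeR, with bars for the 95% interval and grey points for the 3 genes below the filter on low counts. Of the 30 tested genes, the interval of Tnfrsf9 alone lies off 0.

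The precision of these values was limited. Standard errors of the log2 fold changes ran from 0.18 for Trbc2 to 0.59 for Cd8b1, and the 95% interval lay within -1 to 1 for 12 of the 30 tested members. For the other 18, a 2-fold difference in at least one direction lay within the interval and was not excluded.

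The spread between samples lay mostly inside the F10-deleted group. F10-deleted sample 3 was the lowest of the 6 samples for 21 of the 33 genes and the highest for 0. F10-deleted sample 1 was the highest for 16 genes and the lowest for 0. The shares of all genes that were lowest or highest in these samples were not counted, so these numbers have no background. On the log2(CPM + 0.5) scale, where CPM stands for a gene's count scaled to the size of its library, the 33 genes averaged 0.33, -0.45 and 0.12 in F10-deleted samples 1, 3 and 4, against 0.05, -0.03 and -0.02 for F10-intact tumours, each relative to the F10-intact mean of the gene. The SD of the log2 values was larger in the F10-deleted group for 25 of the 33 genes (75.8%), while it was so for 39.9% of all genes tested. Its median over the 33 genes was 0.47 in the F10-deleted group and 0.27 in the F10-intact group.

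**Figure D2:**
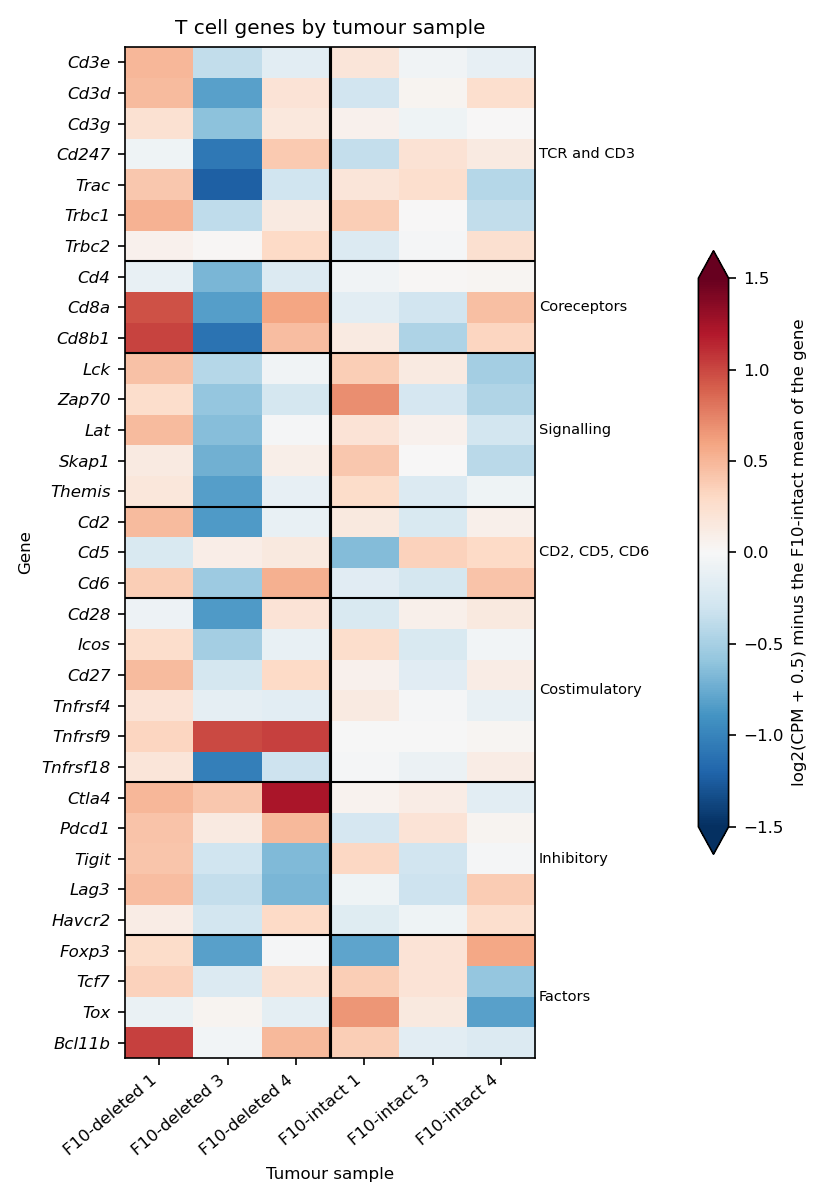
Heat map of the 33 genes (rows, grouped by role) in the 6 samples (columns), coloured by log2(CPM + 0.5) minus the F10-intact mean of the gene. F10-deleted sample 3 is blue, meaning low, over most receptor, coreceptor and signalling genes, and Tnfrsf9 and Ctla4 are red in all 3 F10-deleted samples.

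Without F10-deleted sample 3, 0 of the 31 members then tested passed. This sample was left out after its low values had been seen, so higher values follow from the choice. The median log2 fold change was 0.23, against 0.01 over all genes, and 25 of the 31 lay above 0, where 51.6% of all genes did. Without F10-deleted sample 1, the highest for 16 genes, the median was -0.17 and 9 of 30 lay above 0, where 51% of all genes did. With F10-deleted sample 3 left out, the groups did not overlap for 10 of the 31 (32.3%), set against 21.3% of all genes. Of these, 9 were higher in the 2 remaining F10-deleted samples, namely Cd3d, Cd3g, Cd8a, Cd8b1, Cd27, Tnfrsf9, Ctla4, Pdcd1 and Bcl11b, and Cd4 was lower. Those 9 are set against 13.1% of all genes with higher values. Among them, Ctla4 was below the filter with all 6 samples and passed it here through F10-deleted samples 1 and 4, at 9 and 22 counts. The same counts set its direction, so its place among the 9 adds no support. Ctla4 likewise entered the counts below when an F10-intact sample was left out. Without F10-intact sample 4, the sample apart on the first principal component, the median was -0.06 and 5 members did not overlap, where 25.1% of all genes did not. Members without overlap numbered 4, of which 3 were lower in the F10-deleted group, without F10-deleted sample 1 (31% of all genes) and 2 without F10-deleted sample 4 (26.4%). When F10-intact sample 1 was left out 5 members did not overlap (30.2% of all genes), and when F10-intact sample 3 was, 4 did not (27.3%).

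Summed gamma-delta constants and NK cell markers were also lowest in F10-deleted sample 3, while summed B cell markers were not. The 14 other T cell surface genes summed to 154.2 CPM in that sample and were lowest in F10-intact sample 4, at 99.2 CPM. The constant regions of the gamma and delta receptor chains, which mark gamma-delta T cells, summed to 15.6, 4.99 and 13.6 CPM in F10-deleted samples 1, 3 and 4 and to 11.0, 10.7 and 11.1 CPM in the F10-intact samples over 4 genes. The 8 NK cell markers summed to 24.4, 10.9 and 22.6 CPM in the F10-deleted samples and to 12.5, 15.1 and 23.6 CPM in the F10-intact samples. Of these, Klre1, Klrd1, Klrk1 and Klra8 were lowest in F10-deleted sample 3. Ncr1, Klrb1c and Klri2 were lowest in F10-deleted sample 1, and Gzma, at 9.66 CPM in that sample, was lowest in F10-intact sample 1. The 8 B cell markers, with none at 0 in any sample, summed to 15.4, 19.2 and 14.5 CPM in the F10-deleted samples and to 16.9, 15.2 and 24.8 CPM in the F10-intact samples. Macrophage and monocyte markers (10 of 10 with counts everywhere) summed to 594.4 to 736.5 CPM in the F10-deleted samples and to 585.6 to 813.7 CPM in the F10-intact samples. Skeletal muscle markers (7 of 7 with counts everywhere) summed to 1688, 674.7 and 1535 CPM in the F10-deleted samples and to 103.5, 19.4 and 12.4 CPM in F10-intact tumours. The groups did not overlap, and F10-deleted sample 3 held the least of its group. Adipocyte markers (5 genes, of which 1 was at 0 in some samples) summed to 102.1, 10.2 and 93.7 CPM in the F10-deleted samples and to 26.3, 8.57 and 1.87 CPM in the F10-intact samples. Prostate epithelium markers summed to 4405 to 4958 CPM in the F10-deleted samples and to 5316 to 8400 CPM in the F10-intact samples, without overlap. One of the 9, Sbp, had 211.3, 274.3 and 459.8 CPM in the F10-deleted samples and 1038, 2641 and 3107 CPM in the F10-intact samples. Of the 9, 7 had a log2 fold change below 0 and 2 above. Krt8 and Epcam were at 0.00 and -0.01, so the sum does not measure the amount of epithelium. Basal epithelium markers (4 of 4) summed to 2666, 3548 and 2108 CPM in the F10-deleted samples and to 1882, 1240 and 758 CPM in the F10-intact samples, and endothelium markers (5 of 5) to 55.5, 56.1 and 42.5 CPM in the F10-deleted samples and to 40.5, 31.6 and 21.7 CPM in the F10-intact samples, both without overlap. Mitochondrial genes held 3.14% to 4.58% of counts in the F10-deleted samples and 2.45% to 5.75% in the F10-intact samples. Stromal genes of lymphoid organs (5 genes, with Glycam1 at 0 in F10-deleted sample 3) summed to 99.9 to 187.5 CPM in the F10-deleted samples and to 83.6 to 209.7 CPM in the F10-intact samples. The part of these signals in the values of the T cell genes was not tested.

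**Figure D3:**
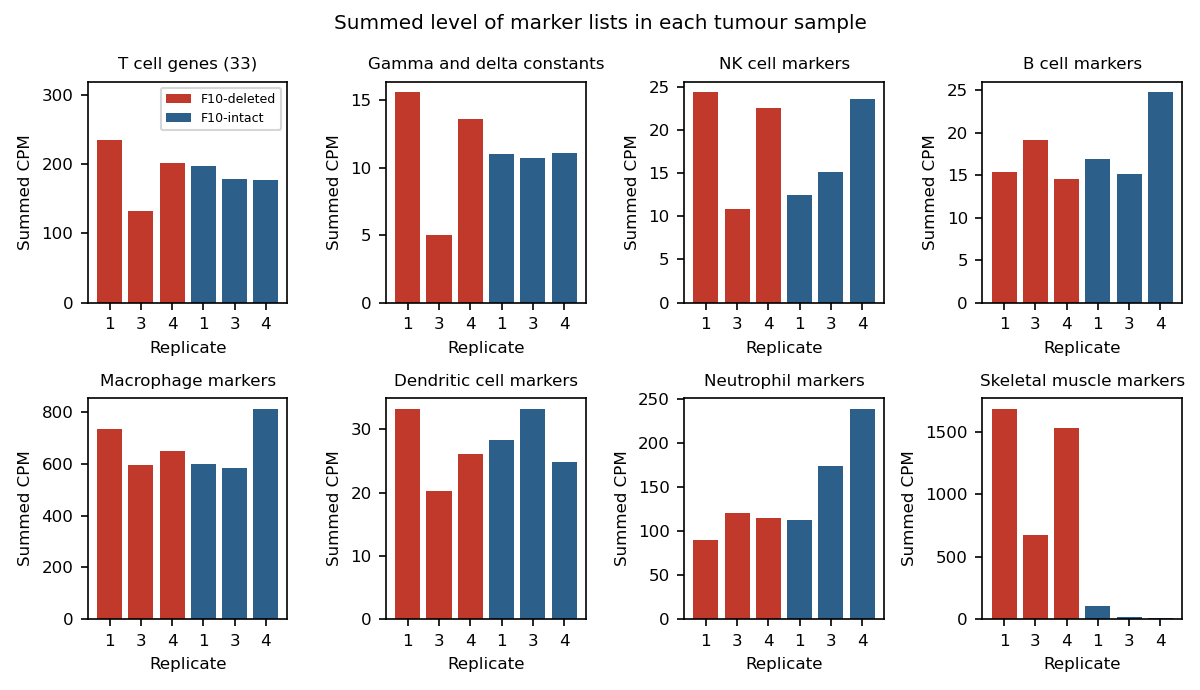
Summed CPM of 8 gene lists (panels) in each of the 6 samples (bars, numbered by replicate, F10-deleted in red and F10-intact in blue). The T cell, gamma-delta, NK and dendritic cell panels share their lowest bar, F10-deleted sample 3, and the B cell panel does not.

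The constant regions of the alpha and beta chains had the highest levels of the 33 genes per length of exon. Per kilobase of annotated exon, the beta chain constant region Trbc2 was the highest of the 33 genes, with a mean level of 35.3 CPM per kilobase over the 6 samples. It was followed by Trbc1 at 11.5 CPM per kilobase, by the alpha chain constant region Trac at 7.02 and by the CD3 gamma gene Cd3g at 4.68 CPM per kilobase. Trbc1 and Trbc2 are close copies, so reads may have been split between them in a way that the counts do not show. The lowest levels were those of Themis, a signalling protein of developing T cells, at 0.21 CPM per kilobase, and Foxp3, the factor of regulatory T cells, at 0.115 CPM per kilobase. The order depends on exon lengths that include every annotated isoform.

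**Figure D4:**
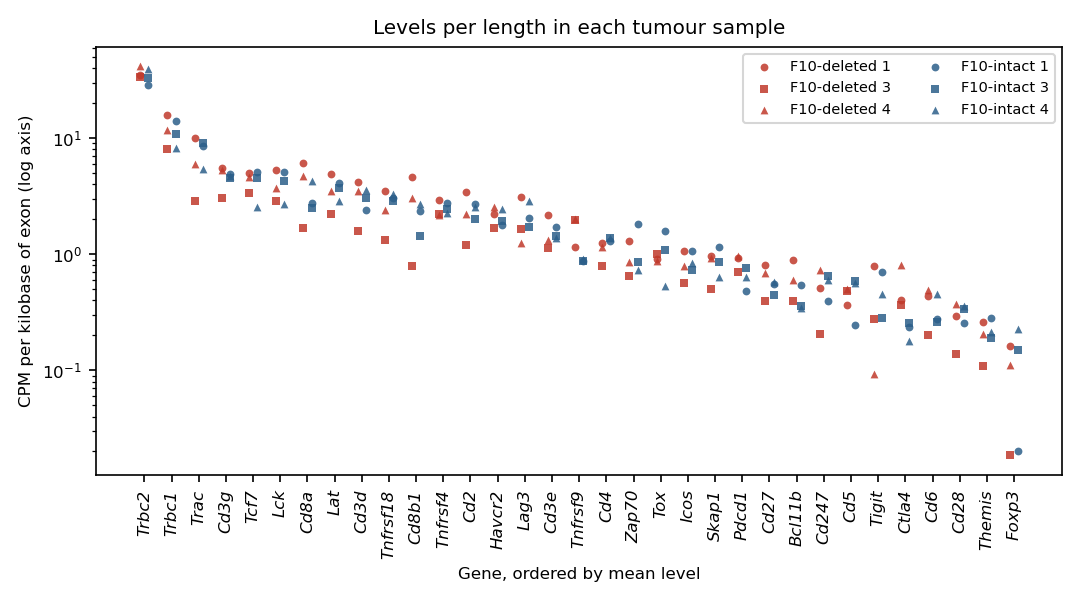
CPM per kilobase of exon (log axis) of the 33 genes, ordered by their mean, with 1 point per sample (red for F10-deleted, blue for F10-intact, shapes for replicates). Levels run from 35.3 CPM per kilobase for Trbc2 to 0.115 for Foxp3, and the groups lie over each other for most genes.

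Among the CD3 chains, Cd3e, which pairs with the delta or gamma chain, had 8.93, 4.65 and 5.46 CPM in F10-deleted samples 1, 3 and 4 and 7.01, 5.91 and 5.60 CPM in the F10-intact samples. The F10-deleted samples held both the highest and the lowest value, and the log2 difference was 0.03 ± 0.31 (SE, edgeR adjusted p = 0.982). Cd3d, the delta chain, had 7.67, 2.88 and 6.31 CPM in the F10-deleted samples and 4.34, 5.57 and 6.53 CPM in the F10-intact samples. Cd3g, the gamma chain, had 18.2, 9.90 and 17.3 CPM in the F10-deleted samples and 16.1, 14.8 and 15.4 CPM in the F10-intact samples. For all 3 chains F10-deleted sample 3 was lowest and F10-deleted sample 1 highest, with the other samples between. Cd247, the zeta chain, averaged 2.58 ± 1.42 CPM in the F10-deleted group and 2.92 ± 0.70 CPM in the F10-intact group (SD, n = 3 each), and 56.4% of its exon bases lie opposite those of Pou2f1, so reads of the pair could be mixed unless the counting used strand, which is not given.

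Trac and Trbc1 were lowest of all 6 samples in F10-deleted sample 3, and Trbc2 was not. Trac had 9.45, 2.71 and 5.63 CPM in the F10-deleted samples and 8.03, 8.49 and 5.08 CPM in the F10-intact samples, with a log2 difference of -0.29 ± 0.45 (SE, edgeR adjusted p = 0.88). Trbc2 had 24.3, 23.5 and 28.7 CPM in the F10-deleted samples and 19.9, 22.8 and 27.5 CPM in the F10-intact samples, with a log2 difference of 0.12 ± 0.18 (SE, edgeR adjusted p = 0.86). Trbc2 was the only receptor chain gene that was not lowest in F10-deleted sample 3. Per kilobase, the beta constants together stood at 5.02, 14.5 and 8.87 times Trac in the F10-deleted samples and at 5.0, 4.82 and 8.81 times Trac in the F10-intact samples. Trbc1 had 11.8, 6.09 and 8.87 CPM in the F10-deleted samples and 10.6, 8.06 and 6.12 CPM in the F10-intact samples, and the groups overlapped. The constants of the gamma chain genes together (Tcrg-C1, Tcrg-C2 and Tcrg-C4) stood at 1.59, 1.83 and 2.15 times Trac per kilobase in the F10-deleted samples. They stood at 1.34, 1.05 and 1.80 times Trac in F10-intact tumours, and the groups overlapped. These ratios set 3 genes summed against 1 gene. Singly, the mean levels over the 6 samples were 2.16, 6.96 and 1.74 CPM per kilobase for Tcrg-C1, Tcrg-C2 and Tcrg-C4, against 7.02 for Trac. A gamma chain transcript need not come from a gamma-delta T cell. Trdc, the delta constant, had 0.735, 0.0846 and 1.62 CPM in the F10-deleted samples and 0.369, 1.80 and 2.07 CPM in the F10-intact samples.

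The 3 CD3 genes are neighbours on chromosome 9 (GRCm38). Cd3g (44969572 to 44980431, minus strand) and Cd3d (44981786 to 44987339, plus strand) are transcribed away from each other with 1354 bases between them, and Cd3e (44998740 to 45009627, minus strand) lies 11.4 kb beyond Cd3d. These 3 neighbours had the same highest and lowest sample, and so did Trac, Trbc1, Cd8a, Cd8b1, Lat, Cd2, Cd27 and Tnfrsf18 on other chromosomes. The 250 bases before each RefSeq start are printed here from RefSeq (GRCm38.p6), at chr9:44980432-44980681 on the minus strand for Cd3g, chr9:44981536-44981785 on the plus strand for Cd3d and chr9:45009612-45009861 on the minus strand for Cd3e. A link between these windows and the values was not tested. Capitals mark AGGAAG, a core of ETS factor sites, on either strand.
Cd3g: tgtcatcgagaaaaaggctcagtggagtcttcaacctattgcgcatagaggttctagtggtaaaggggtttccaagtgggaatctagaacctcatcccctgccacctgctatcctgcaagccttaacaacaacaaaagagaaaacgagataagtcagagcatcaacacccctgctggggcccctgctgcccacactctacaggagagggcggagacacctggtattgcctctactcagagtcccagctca
Cd3d: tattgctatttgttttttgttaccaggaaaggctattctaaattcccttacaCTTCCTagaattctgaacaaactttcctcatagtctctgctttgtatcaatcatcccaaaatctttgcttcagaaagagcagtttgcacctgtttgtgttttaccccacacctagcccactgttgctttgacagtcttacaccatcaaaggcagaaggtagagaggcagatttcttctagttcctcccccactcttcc
Cd3e: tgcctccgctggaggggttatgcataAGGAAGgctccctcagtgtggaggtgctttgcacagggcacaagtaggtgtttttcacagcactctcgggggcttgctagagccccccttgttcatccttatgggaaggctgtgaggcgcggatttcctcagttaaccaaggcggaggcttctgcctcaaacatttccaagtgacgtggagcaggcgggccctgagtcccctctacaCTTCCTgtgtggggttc
The window of Cd3g held 0 such matches, that of Cd3d 1 and that of Cd3e 2, and the core TGTGGT of RUNX factor sites, searched on both strands, was in none of the 3. In all 32851 windows of this length in the RefSeq table, AGGAAG was in 29.5% and TGTGGT in 14%. Windows were given for 21 of the 33 genes, 28 windows in all, and 13 of the 28 held AGGAAG and 4 held TGTGGT. These windows had a median of 4 CG dinucleotides, against 6 in all windows. Windows of Cd8b1, Skap1, Trac, Cd6, Cd28, Icos, Lag3, Trbc1, Trbc2, Tox, Cd2 and Cd4 were not used here.

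The coreceptors gave values in different directions, and 0 of 3 passed the test. Cd4, which binds MHC class II, had 5.04, 3.21 and 4.69 CPM in the F10-deleted samples and 5.26, 5.57 and 5.60 CPM in the F10-intact samples. All 3 F10-deleted values lay below all 3 F10-intact values, at a log2 difference of -0.35 ± 0.28 (SE, edgeR adjusted p = 0.723) that was -0.14 without F10-deleted sample 3. Cd8a, which binds MHC class I, had 22.2, 6.09 and 17.1 CPM in the F10-deleted samples and 9.97, 9.09 and 15.6 CPM in the F10-intact samples. F10-deleted samples 1 and 4 were above every F10-intact sample and F10-deleted sample 3 was below them all, at a log2 difference of 0.39 ± 0.46 (SE, edgeR adjusted p = 0.821). Cd8b1, the beta chain of CD8, had 6.83, 1.18 and 4.52 CPM in the F10-deleted samples and 3.51, 2.14 and 4.04 CPM in the F10-intact samples, with the same order of the F10-deleted samples. Without F10-deleted sample 3, Cd8a was at 0.80 and Cd8b1 at 0.84 (log2 fold change, edgeR adjusted p = 0.686 and 0.847), and without F10-deleted sample 1 they were at 0.05 and -0.14.

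Per kilobase, Cd8a and Cd8b1 together exceeded Cd4 in every tumour. The ratio was 8.55, 3.10 and 6.67 in the F10-deleted samples, against 3.91, 2.85 and 5.04 in the F10-intact samples. F10-deleted samples 1 and 4 had the highest ratios, F10-deleted sample 3 lay among the F10-intact samples, and the groups overlapped. In the mouse, Cd8a is also made by a class of dendritic cells, and the 7 dendritic cell markers summed to 33.3, 20.2 and 26.1 CPM in the F10-deleted samples and to 28.3, 33.3 and 24.9 CPM in the F10-intact samples. The beta chain, which those dendritic cells lack, gave ratios to Cd4 of 3.68, 1.00 and 2.62 in the F10-deleted samples, against 1.81, 1.05 and 1.96 in the F10-intact samples.

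Of the 5 genes of proximal signalling, 0 passed and all 5 had a log2 fold change below 0, between -0.29 and -0.01, with 0 of 5 separating the groups. Lck, the kinase of the coreceptors, had 15.6, 8.37 and 11.0 CPM in the F10-deleted samples and 14.9, 12.6 and 7.88 CPM in the F10-intact samples. Its lowest value was in F10-intact sample 4, beside F10-deleted sample 3. Zap70, the kinase that binds the phosphorylated chains, averaged 2.80 ± 0.991 CPM in the F10-deleted group and 3.40 ± 1.78 CPM in the F10-intact group (SD, n = 3 each). Lat, the membrane adaptor, averaged 9.79 ± 3.78 CPM in the F10-deleted group and 9.84 ± 1.68 CPM in the F10-intact group. Skap1, an adaptor that links the receptor to integrins, and Themis had log2 fold changes of -0.17 and -0.27.

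The surface modulators Cd2, an adhesion receptor, and Cd5 and Cd6, which tune receptor signalling, had log2 fold changes of -0.09, -0.06 and 0.19. Cd2 was lowest in F10-deleted sample 3, at 2.11 CPM, and highest in F10-deleted sample 1, at 5.99 CPM. Cd5 departed from that pattern, with its lowest value, 1.20 CPM, in F10-intact sample 1. Cd5 and its neighbour Cd6 on chromosome 19 thus did not share their lowest sample.

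**Figure D5:**
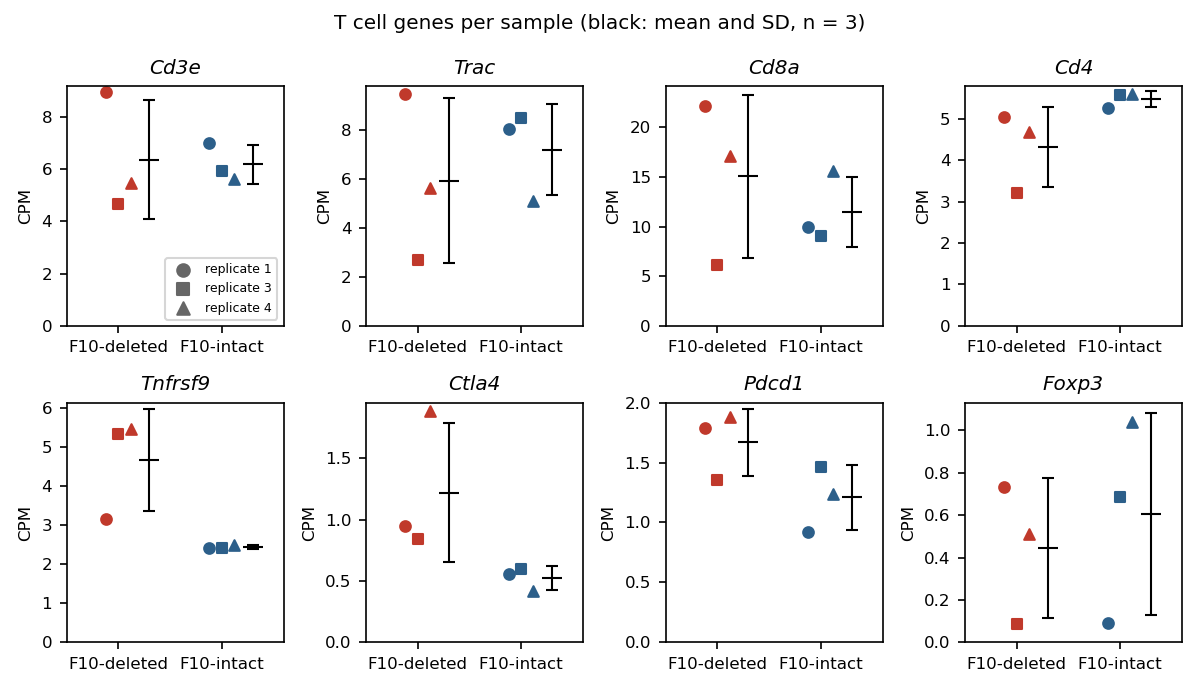
CPM of 8 genes in each sample (points, shaped by replicate), with the mean and SD of each group in black (n = 3). The groups do not overlap for Cd4, Tnfrsf9 and Ctla4, and overlap for Cd3e, Trac, Cd8a, Pdcd1 and Foxp3.

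Tnfrsf9 and Ctla4 were the only members with all 3 F10-deleted values above all 3 F10-intact values. Of all genes tested, 8.99% separated in that direction, and Tnfrsf9 did not pass the test over all genes. Ctla4 was below the filter on low counts, so it was not in that test and the share does not cover it. Tnfrsf9, also called 4-1BB, is a costimulatory receptor induced on activated T cells. It had 3.15, 5.33 and 5.46 CPM in the F10-deleted samples and 2.40, 2.40 and 2.49 CPM in the F10-intact samples. All 3 F10-deleted values were above the F10-intact values, which differed little, and the log2 difference was 0.94 ± 0.33 (SE, 95% interval 0.18 to 1.69, unadjusted p = 0.0214, edgeR adjusted p = 0.347). It ranged from 0.80 to 1.18 with 1 sample left out. Tnfrsf9 was not low in F10-deleted sample 3, where all 3 CD3 chains were lowest, and its level per kilobase was 0.0967, 0.34 and 0.198 of the 3 CD3 chains together in the F10-deleted samples, against 0.0974, 0.0974 and 0.0943 in the F10-intact samples, where F10-deleted sample 1 lay within the F10-intact range. Tnfrsf9 is also made by cells other than T cells, and which cells gave these reads was not tested.

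Ctla4, the receptor that competes with CD28 for its ligands, had 9, 10 and 22 counts in the F10-deleted samples and 6, 7 and 4 counts in the F10-intact samples. In CPM these were 0.945, 0.846 and 1.88 in the F10-deleted samples, against 0.554, 0.600 and 0.415 in the F10-intact samples, and the groups did not overlap. The edgeR fit without a filter gave a log2 difference of 1.22 ± 0.54 (SE, 95% interval 0.01 to 2.43, unadjusted p = 0.0452, edgeR adjusted p = 0.508), and DESeq2 gave 1.23 with an unadjusted p of 0.106. F10-deleted sample 4 held the highest value. Ctla4 lies between Cd28 and Icos on chromosome 1, with 62.1 kb to Icos, and these 2 neighbours had log2 fold changes of -0.23 ± 0.44 and -0.13 ± 0.36 (SE, edgeR adjusted p = 0.903 and 0.938). The 250 bases before the RefSeq start of Ctla4 and Tnfrsf9, whose groups did not overlap, are printed from RefSeq (GRCm38.p6), for Ctla4 at chr1:60908775-60909024 and for the first of the 2 starts of Tnfrsf9 at chr4:150919905-150920154, both on the plus strand and with capitals as above.
Ctla4: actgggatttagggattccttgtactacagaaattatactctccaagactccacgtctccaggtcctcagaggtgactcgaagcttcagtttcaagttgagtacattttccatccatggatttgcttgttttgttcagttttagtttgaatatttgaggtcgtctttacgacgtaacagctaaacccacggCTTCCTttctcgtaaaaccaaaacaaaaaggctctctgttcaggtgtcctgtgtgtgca
Tnfrsf9: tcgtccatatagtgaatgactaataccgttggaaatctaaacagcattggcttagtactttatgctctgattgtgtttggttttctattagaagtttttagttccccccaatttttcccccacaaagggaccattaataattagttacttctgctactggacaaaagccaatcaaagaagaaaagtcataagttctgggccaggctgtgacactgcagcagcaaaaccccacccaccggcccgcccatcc
The window of Ctla4 held 1 match to AGGAAG, on the opposite strand, that of Tnfrsf9 held 0, and TGTGGT was in neither. Both genes were picked by their values, and a link between the windows and the values was not tested.

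The groups overlapped for the other costimulatory receptors. Tnfrsf4, also called OX40, averaged 3.34 ± 0.564 CPM in the F10-deleted group and 3.41 ± 0.342 CPM in the F10-intact group (SD, n = 3 each). Its neighbour Tnfrsf18, also called GITR, averaged 3.68 ± 1.66 CPM in the F10-deleted group and 4.69 ± 0.36 CPM in the F10-intact group, and 27.2% of its exon bases lie opposite the gene model Gm16008. Cd27, a receptor of naive and memory T cells, was at a log2 difference of 0.27 ± 0.42 (SE, edgeR adjusted p = 0.876). Tnfrsf4, Tnfrsf9 and Tnfrsf18 all lie on chromosome 4, and 0 of the 3 passed.

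Of the 3 inhibitory receptors that could be tested, 0 passed. Pdcd1, which encodes PD-1, had 1.79, 1.35 and 1.88 CPM in the F10-deleted samples and 0.923, 1.46 and 1.24 CPM in the F10-intact samples. F10-deleted sample 3 lay below the highest F10-intact sample, and the log2 difference was 0.46 ± 0.38 (SE, edgeR adjusted p = 0.723). Lag3, which binds MHC class II, had 6.51, 3.47 and 2.64 CPM in the F10-deleted samples and 4.34, 3.60 and 6.12 CPM in the F10-intact samples. The log2 difference was -0.16 ± 0.41 (SE, edgeR adjusted p = 0.932), and the order of its samples differed from that of its neighbour Cd4, which lies 16.1 kb away on chromosome 6. Havcr2, which encodes TIM-3 and is also made by macrophages and dendritic cells, averaged 5.88 ± 1.23 CPM in the F10-deleted group and 5.65 ± 0.968 CPM in the F10-intact group (SD, n = 3 each). Tigit had only 7, 3 and 1 counts in the F10-deleted samples and 7, 3 and 4 counts in the F10-intact samples. Per kilobase, the 5 inhibitory receptors together stood at 0.623, 0.811 and 0.563 of the 3 CD3 chains in the F10-deleted samples, against 0.583, 0.547 and 0.686 in the F10-intact samples, and the groups overlapped.

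Foxp3 was close to the detection limit, with 7, 1 and 6 counts in the F10-deleted samples and 1, 8 and 10 counts in the F10-intact samples. Each group held a sample with a single count. The unfiltered log2 fold change was -0.44 ± 0.91 (SE, 95% interval -2.50 to 1.62, edgeR adjusted p = 0.932). Part of its exon sequence is shared with other gene models, 18.6% with Flicr on the same strand and 12.9% with Ccdc22 on the opposite strand.

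The other 3 transcription factors overlapped between the groups. Bcl11b, which fixes the T cell lineage, had 7.25, 3.21 and 4.86 CPM in the F10-deleted samples and 4.43, 2.91 and 2.80 CPM in the F10-intact samples. The log2 difference was 0.59 ± 0.39 (SE, edgeR adjusted p = 0.644). Tcf7, which encodes TCF-1, a factor of naive and stem-like T cells, had 13.2, 8.80 and 12.1 CPM in the F10-deleted samples and 13.5, 11.9 and 6.74 CPM in the F10-intact samples. Tox, a factor of exhausted T cells, had 6.93, 7.70 and 6.65 CPM in the F10-deleted samples and 12.1, 8.31 and 4.04 CPM in the F10-intact samples. For Tcf7 and Tox the lowest and the highest value were both in the F10-intact group, unlike those of the CD3 genes. Their log2 fold changes were 0.08 ± 0.31 and -0.20 ± 0.38 (SE, edgeR adjusted p = 0.954 and 0.903).

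The wider pathway gave 0 calls as well. Of 81 other genes in 6 lists, 77 were matched and 73 could be tested, with 0 past the threshold, 1 (1.37%) at an unadjusted p under 0.05, against 10.9% of all genes, and a median log2 fold change of 0.06. The groups did not overlap for 8 of the 73 (11.0%), against 16.7% of all genes. Among 22 genes downstream of the receptor, Prkcq, the kinase PKC-theta, had 6.41, 6.85 and 5.97 CPM in the F10-deleted samples and 2.77, 4.20 and 1.45 CPM in the F10-intact samples, at a log2 difference of 1.18 ± 0.39 (SE, edgeR adjusted p = 0.327). PKC-theta is also abundant in skeletal muscle, whose markers were higher in the same samples, and the part of muscle RNA in this value was not tested. Plcg1, a phospholipase of many cell types, was at 0.32 ± 0.15 (SE, edgeR adjusted p = 0.482).

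Among 14 other T cell surface genes, Cd226, an activating receptor that shares its ligand Pvr with Tigit, was at 0.63 ± 0.32 and Cd69, an early activation marker, at 0.60 ± 0.41 (log2 fold change ± SE, edgeR adjusted p = 0.534 and 0.652). Of 7 other checkpoint receptors tested, Cd200r1, an inhibitory receptor mainly of myeloid cells, was at 0.61 ± 0.35 and Btla, an inhibitory receptor of B and T cells, at -0.52 ± 0.31 (SE, edgeR adjusted p = 0.589 and 0.609). Of 11 ligands tested, 9 lay above 0, where 47.3% of all genes did, and the median log2 difference over all 11 was 0.17. Some of the 9 were near 0, such as Nectin2 at 0.06 and Cd5l at 0.07. Lgals9, which encodes galectin-9, a TIM-3 ligand, had 97.0, 86.4 and 155.5 CPM in the F10-deleted samples and 95.8, 80.9 and 44.7 CPM in the F10-intact samples (edgeR adjusted p = 0.558). Cd274, which encodes the PD-1 ligand PD-L1, had 11.1, 6.68 and 13.5 CPM in the F10-deleted samples and 6.92, 6.94 and 7.98 CPM in the F10-intact samples (edgeR adjusted p = 0.589). As for Cd8a, F10-deleted samples 1 and 4 were above every F10-intact sample in Cd274 and F10-deleted sample 3 was below them. Of 16 other T cell factors tested, 10 lay below 0, where 8415 of all 15963 genes did. Among the 10 was Satb1, a chromatin organiser, at -0.47 ± 0.31 (log2 difference ± SE, edgeR adjusted p = 0.648). Several of these factors are also made by epithelial cells. All 4 gamma and delta constants overlapped between the groups, the smallest p being that of Trdc (log2 fold change -0.78 ± 0.90, edgeR adjusted p = 0.816) and the next that of Tcrg-C4 (0.24 ± 0.63, edgeR adjusted p = 0.932).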

How the data were processed

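Bulk poly-A RNA of 6 prostate tumours was read from 1 end, with strand kept, to 120 bases (labels' protocols). What the authors deposited is a single matrix of unnormalized counts, 1 row for each Ensembl gene. Per the submitters' processing notes, STAR 2.7.10a, DESeq2 and the build GRCm38 are named, with no version for DESeq2. For the counting program and strand setting, nothing is given in the sources used here. Overlapping genes and close copies may share reads. Symbols, positions and exon lengths came from GENCODE M21 (GRCm38), which matched 21605 of 21718 identifiers.

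The test was edgeR 4.0.16 (quasi-likelihood, robust, TMM factors, filterByExpr with a minimum count of 10) in R 4.3.3 over 15963 genes, with Benjamini-Hochberg adjustment and a threshold of 0.05. Members below the filter took values from the same fit without it. CPM used the TMM factors. No list was tested as a set. Ratios to Trac, of Cd8b1 to Cd4 and of Tnfrsf9 to the CD3 chains were chosen after values were seen. P-values reflect only how these samples vary, which may be technical. The script was tested on simulated data. Members and lists were chosen with earlier results of these data known. All members are named, and of each other pathway list the 2 genes with the smallest p, except 1 gene that is not reported here.

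Samples with the same replicate number deviated together from their group means (correlations of 0.372, 0.14 and 0.186 for numbers 1, 3 and 4), so the number was also fitted as a block. No pair of samples in a group agreed within sampling noise (chi-square per degree of freedom of 22.3 to 77.5). Alternatives were RLE and upper quartile scaling, DESeq2 1.42.0, limma-voom (limma 3.58.1), 2 other filters, the block, and leaving out each sample.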

Additional observations from a re-analysis of the deposited data

How the results depend on the processing

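Under all 13 alternatives 0 members passed the adjusted threshold, and the lowest adjusted p of a member was 0.278. The edgeR count over all genes, 7 higher and 0 lower in the F10-deleted group, was 371 higher and 121 lower with DESeq2, 2 higher with limma-voom, 2 higher with a filter of 1 CPM in 3 samples, and 1 higher and 1 lower with the replicate block. Leaving out 1 sample gave 0 to 56 higher and 0 to 16 lower genes, with the most when F10-intact sample 1 was left out. Members at an unadjusted p under 0.05 numbered 2 without a filter (9.52% of all genes) and 0 to 2 with 1 sample left out (6.49% to 13.1% of all genes). Members without overlap numbered 2 to 10 with 1 sample left out, and the median log2 fold change of all tested members was -0.17 to 0.23. These values include Ctla4 in the 4 leave-one-out fits where it passed the filter. Of 400 values of single members under the alternatives, 50 changed sign, over 22 members, none of which exceeded 0.36 in size in the edgeR fit. Outside the leave-one-out fits, Lat was 0.00 with upper quartile scaling and 0.01 with each other filter, Cd3e was -0.04 with limma-voom and -0.01 with the replicate block, Cd3d was -0.08 with limma-voom and -0.05 with the replicate block, and Cd5 was 0.04 with limma-voom. With 1 sample left out, log2 fold changes ran from -0.47 to 0.24 for Cd2, -0.62 to 0.22 for Cd247, -0.57 to 0.12 for Cd28, -0.22 to 0.38 for Cd3d, -0.26 to 0.24 for Cd3e, -0.15 to 0.23 for Cd3g, -0.34 to 0.15 for Cd5, -0.06 to 0.53 for Cd6, -0.14 to 0.84 for Cd8b1, -0.09 to 0.25 for Havcr2, -0.34 to 0.11 for Icos, -0.58 to 0.09 for Lag3, -0.29 to 0.27 for Lat, -0.25 to 0.21 for Lck, -0.35 to 0.11 for Skap1, -0.16 to 0.31 for Tcf7, -0.51 to 0.05 for Themis, -0.15 to 0.07 for Tnfrsf4, -0.52 to 0.22 for Tox, -0.75 to 0.09 for Trac, -0.11 to 0.35 for Trbc1, -0.56 to 0.25 for Zap70. The causes were not tested. The block changed no other call. Counts were low, with 25 of 33 members under 100 counts in every sample.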

Other observations

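The variable segments of the T cell receptor were outside the lists above and were looked at after the other values were seen. The table held 19 variable and joining segments of receptor genes, which together had 54, 48 and 65 counts in the F10-deleted samples and 43, 51 and 48 counts in F10-intact tumours. Of 13 Trbv segments, the variable segments of the beta chain, 9, 7 and 8 had a count in the F10-deleted samples and 11, 11 and 12 in the F10-intact samples. These numbers did not overlap between the groups, and 7.67% of all genes tested had lower values in the F10-deleted group without overlap. The measures differ, since that share rests on the CPM of single genes that passed the filter. A number of segments with a count is not scaled to library size, so the share is not its background. No test is given because the segments were chosen after values were seen. With 23 to 39 Trbv counts per sample, whether a segment has a count can rest on a single read. Receptor diversity was not tested. F10-deleted sample 3 had the fewest segments with a count, 11 of 19. The summed Trbv counts were 28, 24 and 39 in the F10-deleted samples and 23, 39 and 37 in the F10-intact samples, and the groups overlapped. Other segments were not analysed here.

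Gzma, a granzyme of cytotoxic T and NK cells listed here among the NK markers, had 92, 30 and 29 counts in the F10-deleted samples and 9, 14 and 13 counts in F10-intact tumours. It was named after its values were seen. All 3 F10-deleted samples were above the F10-intact samples, and 8.99% of all genes tested separated in that direction. The log2 difference was 2.10 ± 0.63 (SE, edgeR adjusted p = 0.284). F10-deleted sample 1 was far above the rest of its group, at 9.66 CPM against 2.54 and 2.47 CPM in F10-deleted samples 3 and 4.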
